A study of Mus musculus with 4 samples.

Results

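The 10 genes described here make, activate, transport, modify or remove sialic acid, or add the branches of N-glycans on which sialic acid is carried. They are 10 of the 22524 gene identifiers counted by RNA sequencing in each library. The list was chosen by function and by the difference in normalised read count between the 2 groups, since Cmah and Mgat4a were among the largest differences, so the group values of the 10 genes below are a description and carry no test. The libraries came from pre-tumorigenic dermal hyperplasia of mice, in which cells were labelled in vivo with tdTomato and collected by fluorescence-activated sorting. All animals carried Tyr::NrasQ61K, Tyr::CreERT2 and R26R-LSL-tdTomato and received tamoxifen, so oncogenic Nras, the recombinase and the label were shared by both groups, and the tyrosinase (Tyr) promoter directed both Nras and the recombinase to the melanocyte lineage. The Ezh2Y646N group, with 2 libraries, also carried ColA1-LSL-Ezh2Y646N, a mutant histone methyltransferase switched on by the same recombinase. The NrasQ61K group, with 2 libraries, did not. The labels give no age, and do not say whether the libraries of a group came from separate animals, so the spread between them may be technical.

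Sialic acids are acidic sugars that cap the glycans of cell surface proteins and lipids. The pathway starts from UDP-GlcNAc: Gne makes N-acetylmannosamine phosphate, Nans condenses it into sialic acid phosphate, Cmas activates free sialic acid with CMP in the nucleus, and Slc35a1 carries CMP-sialic acid into the Golgi, where sialyltransferases use it. Cmah hydroxylates CMP-N-acetylneuraminic acid to the N-glycolyl form, a sugar that mice make and that humans, whose CMAH gene is inactive, do not. Neu1 in lysosomes and Neu3 at the plasma membrane, which acts mainly on gangliosides, remove sialic acid. Mgat4a, Mgat4b and Mgat5 each add a GlcNAc branch to N-glycans in the Golgi, and Mgat5 branching has been studied in melanoma and other tumours for its part in invasion.

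The sequences before the start sites of Cmah, Mgat4a and Neu3 are shown because these genes had the largest differences among the 10, and because Polycomb repressive complex 2, whose catalytic subunit is Ezh2, is known to be recruited to DNA rich in CG dinucleotides. RNA counts do not measure the binding of this complex, and its part in the values of these genes was not tested. Each is the 250 bases before a start in RefSeq (GRCm38.p6), 5′ to 3′ on the gene's strand, with CG dinucleotides in capitals. The Cmah sequence lies at chr13:24327154-24327403 on the plus strand, the Mgat4a sequence at chr1:37541017-37541266 on the minus strand and the Neu3 sequence at chr7:99828418-99828667 on the minus strand.
Cmah: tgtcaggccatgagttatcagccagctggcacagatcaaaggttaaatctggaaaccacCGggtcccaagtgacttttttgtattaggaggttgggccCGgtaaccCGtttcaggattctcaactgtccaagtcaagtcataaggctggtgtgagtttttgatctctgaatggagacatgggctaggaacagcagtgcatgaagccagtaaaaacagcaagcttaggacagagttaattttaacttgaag
Mgat4a: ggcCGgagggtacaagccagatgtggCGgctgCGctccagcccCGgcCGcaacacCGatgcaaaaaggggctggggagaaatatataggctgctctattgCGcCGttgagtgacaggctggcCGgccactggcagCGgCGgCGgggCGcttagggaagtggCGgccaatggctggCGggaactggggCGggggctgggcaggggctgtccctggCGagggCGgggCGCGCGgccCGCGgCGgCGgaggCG
Neu3: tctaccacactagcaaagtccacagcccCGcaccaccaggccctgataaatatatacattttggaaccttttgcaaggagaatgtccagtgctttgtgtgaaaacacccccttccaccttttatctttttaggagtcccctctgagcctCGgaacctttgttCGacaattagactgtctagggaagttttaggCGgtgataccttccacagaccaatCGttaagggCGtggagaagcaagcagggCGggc

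The Cmah and Mgat4a starts shown differed in these letters. Before the Cmah start there were 3 CG dinucleotides and a G+C content of 45.6%, and before the Mgat4a start there were 26 and 72.4%. The ratio of observed CG to that expected from base content was 0.237 for Cmah and 0.851 for Mgat4a, against a median of 0.374 over 32841 starts of all genes, of which 64.8% had a higher ratio than Cmah and 15.1% a higher ratio than Mgat4a. CG was searched as these letters, which read the same on both strands, and 92.1% of all starts held at least 1. The Neu3 start had 7 CG dinucleotides and a ratio of 0.466. All of the 10 genes but Nans and Mgat4b had an entry, 8 genes with 11 starts. The second Cmah start, at position 24415122, had 2 CG dinucleotides and a ratio of 0.131. The second Mgat4a start, at position 37536404, had 1 and a ratio of 0.145. The Mgat4a start shown was thus above both Cmah starts in this ratio, while the second Mgat4a start was below the Cmah start shown. Gne had 22 before its inner start and 6 before its outer one, Slc35a1 had 13, Cmas 11, Mgat5 11 and Neu1 8. The counts per gene do not say which start was used.

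Of 14265 genes tested with edgeR's quasi-likelihood test, 157 were higher and 96 lower in the Ezh2Y646N libraries at a Benjamini-Hochberg adjusted p under 0.05, which is 1.77% of those tested, 1.1% in the higher and 0.673% in the lower direction. Both Ezh2Y646N libraries were above both NrasQ61K libraries in 21.1% of the tested genes and below them in 23.1%, so that 44.2% were free of overlap. An unadjusted p under 0.05 was found in 2039 genes, 14.3% of those tested. The count of 253 calls depended on the setting. It was 927 in DESeq2 (6.5% of the genes tested), 1302 with no filter on low counts (6.95%) and 1337 with the replicate number as a block (9.37%). RLE size factors, limma voom and a fit that was not robust called 1.52%, 1.5% and 1.71%. Leaving out Ezh2Y646N replicate 1 gave 92 (0.63%) and leaving out its replicate 2 gave 219 (1.47%), while leaving out NrasQ61K replicate 1 gave 440 (2.95%) and leaving out its replicate 2 gave 1123 (7.66%). Total counts per library ranged from 14808801 to 20600297. Ezh2 RNA, which the counts do not divide into mutant and endogenous, was at 135 and 91.6 CPM in the Ezh2Y646N libraries and at 171 and 75.1 CPM in the NrasQ61K libraries, so this gene could not check the labels. All 10 genes passed the filter on low counts, which 14265 of 22524 gene identifiers passed. Of the 10, 1 was past the threshold in the higher direction (Neu3), where 1.1% of all tested genes were, and 2 in the lower (Cmah and Mgat4a), where 0.673% were. The Ezh2Y646N libraries lay wholly above the NrasQ61K libraries in 2 of the 10 (21.1% of all tested genes) and wholly below in 6 (23.1%). Since the list was chosen with this comparison in view, nothing is read from these counts. The median log2 fold change was -0.32 over the 10 genes and -0.04 over all genes tested. Levels are given as CPM, counts scaled to a common library size after adjustment by the trimmed mean of M-values.

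**Figure D1:**
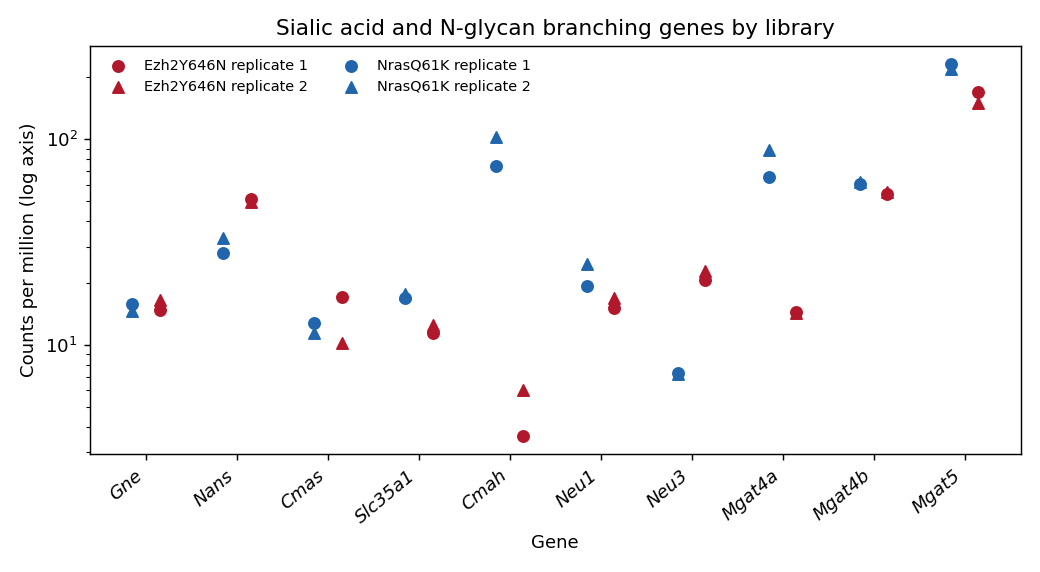
CPM of the 10 genes, on a log axis, in the 2 Ezh2Y646N libraries (red) and the 2 NrasQ61K libraries (blue), with circles for replicate 1 and triangles for replicate 2. Cmah lies at 3.62 and 6.01 CPM in the Ezh2Y646N libraries and at 74.0 and 103 CPM in the NrasQ61K libraries, the widest gap among the 10.

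The supply of sialic acid was described by Gne, Nans, Cmas and Slc35a1, none of which passed the threshold. Gne (ENSMUSG00000028479, GRCm38 chromosome 4, 44034075 to 44084177, minus strand), the enzyme of the first committed step, was at 14.7 and 16.6 CPM in the Ezh2Y646N libraries and at 15.7 and 14.7 CPM in the NrasQ61K libraries. The groups overlapped, with a log2 fold change of 0.04 (SE 0.28). Cmas (ENSMUSG00000030282, chromosome 6, 142756686 to 142775714, plus strand), the CMP-sialic acid synthetase, was at 17.1 and 10.2 CPM against 12.8 and 11.4 CPM. Its groups overlapped too, with a log2 fold change of 0.18 (SE 0.34) that became -0.24 without Ezh2Y646N replicate 1, and the Ezh2Y646N libraries differed from each other 1.68-fold.

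Nans (ENSMUSG00000028334, chromosome 4, 46489248 to 46503632, plus strand), the sialic acid phosphate synthase, was at 51.0 and 49.5 CPM in the Ezh2Y646N libraries and at 27.9 and 33.3 CPM in the NrasQ61K libraries. Both Ezh2Y646N values were above both NrasQ61K values, and the log2 fold change was 0.72 (SE 0.23). Its exons share 1356 of 4581 bases (29.6%) with those of Trim14 on the opposite strand. The strand setting of the authors' counting is not given in the sources used here, so the reads of Nans and Trim14 cannot be told apart there, and the Nans values are uncertain. Trim14 itself had a log2 fold change of -0.10 (SE 0.47). Slc35a1 (ENSMUSG00000028293, chromosome 4, 34663257 to 34687438, minus strand), the Golgi transporter of CMP-sialic acid, was at 11.4 and 12.4 CPM against 16.9 and 17.7 CPM. Both Ezh2Y646N values were below both NrasQ61K values, with a log2 fold change of -0.54 (SE 0.28).

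Cmah (ENSMUSG00000016756, chromosome 13, 24327404 to 24477377, plus strand), the hydroxylase that acts on CMP-sialic acid, was lower in the Ezh2Y646N libraries than in the NrasQ61K libraries. The raw counts were 63 and 87 in the Ezh2Y646N libraries and 1171 and 2138 in the NrasQ61K libraries. In CPM these were 3.62 and 6.01 against 74.0 and 103. Mean levels were 4.81 ± 1.69 and 88.3 ± 20.2 CPM (SD, n = 2 each), so the NrasQ61K mean was 18.3 times the Ezh2Y646N mean. The log2 fold change was -4.20 (SE 0.35), larger in size than that of 99.67% of the other tested genes. The replicates differed 1.66-fold in the Ezh2Y646N group and 1.39-fold in the NrasQ61K group. The log2 fold change of Cmah lay between -4.61 and -3.88 when each library was left out in turn. In bulk RNA such as this, fewer cells that express Cmah and less Cmah RNA per cell cannot be told apart.

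Removal of sialic acid was described by Neu1 and Neu3, whose fold changes had opposite signs. Neu1 (ENSMUSG00000007038, chromosome 17, 34931253 to 34935953, plus strand), the lysosomal sialidase, was at 15.1 and 16.9 CPM in the Ezh2Y646N libraries and at 19.4 and 24.8 CPM in the NrasQ61K libraries. The log2 fold change was -0.47 (SE 0.28), and the groups did not overlap. Neu3 (ENSMUSG00000035239, chromosome 7, 99811439 to 99828417, minus strand), the plasma membrane sialidase, was at 20.7 and 22.9 CPM against 7.27 and 7.19 CPM. Both Ezh2Y646N values were well above both NrasQ61K values, with means of 21.8 ± 1.53 and 7.23 ± 0.0525 CPM (SD, n = 2 each) and a log2 fold change of 1.59 (SE 0.29). Neu3 was no longer past the threshold in limma voom, without Ezh2Y646N replicate 1 and without Ezh2Y646N replicate 2, where its log2 fold change was 1.58, 1.66 and 1.51. Per kilobase of exon, Neu1 was at 65.4% and 66.0% of the level of Neu3 in the Ezh2Y646N libraries and at 239% and 309% of it in the NrasQ61K libraries, so the order of these sialidase RNAs differed between the groups.

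N-glycan branching was described by Mgat4a, Mgat4b and Mgat5. Mgat4a (ENSMUSG00000026110, chromosome 1, 37439340 to 37541016, minus strand) had raw counts of 252 and 208 in the Ezh2Y646N libraries and of 1033 and 1855 in the NrasQ61K libraries. In CPM these were 14.5 and 14.4 against 65.3 and 89.0. Mean levels were 14.4 ± 0.0838 and 77.1 ± 16.7 CPM (SD, n = 2 each), a ratio of 5.35 of NrasQ61K over Ezh2Y646N, with a log2 fold change of -2.42 (SE 0.26), larger in size than that of 97.4% of the other tested genes. The log2 fold change of Mgat4a lay between -2.63 and -2.14 when each library was left out in turn.

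Mgat4b (ENSMUSG00000036620, chromosome 11, 50210890 to 50235103, plus strand), which catalyses the same reaction as Mgat4a, was at 54.3 and 55.5 CPM in the Ezh2Y646N libraries and at 61.0 and 62.1 CPM in the NrasQ61K libraries. The groups did not overlap, yet the log2 fold change of -0.17 was smaller than its SE of 0.21. Per kilobase of exon, Mgat4a was at 5.63% and 5.47% of the level of Mgat4b in the Ezh2Y646N libraries and at 22.6% and 30.2% in the NrasQ61K libraries. By this measure Mgat4b was the more abundant of these isoenzyme RNAs in all 4 libraries. The order depends on the length of all annotated exons, 12881 bases in Mgat4a and 2719 in Mgat4b. In CPM, Mgat4a was above Mgat4b in both NrasQ61K libraries, at 65.3 and 89.0 against 61.0 and 62.1. Mgat5 (ENSMUSG00000036155, chromosome 1, 127205015 to 127488336, plus strand), which adds a different branch, was at 170 and 151 CPM against 231 and 219 CPM. Both Ezh2Y646N values were lower, with a log2 fold change of -0.49 (SE 0.22). Its exons share 152 of 10291 bases with those of Tmem163 on the opposite strand, a gene under the filter on low counts.

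**Figure D2:**
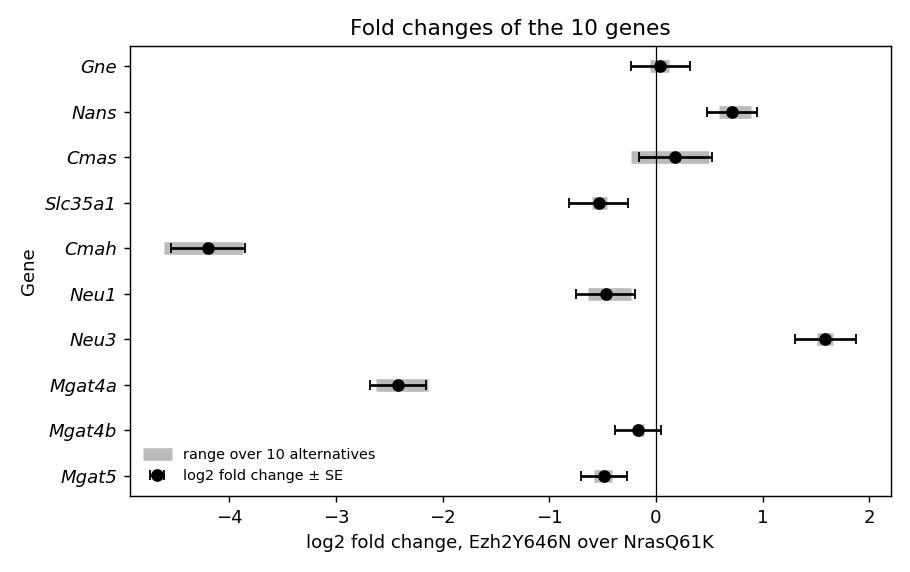
Log2 fold change of Ezh2Y646N over NrasQ61K for each of the 10 genes, as points with bars of 1 SE, over grey bands that span the values under 10 alternative analyses. The Cmah band runs from -4.61 to -3.88, the Mgat4a band from -2.63 to -2.14 and the Neu3 band from 1.51 to 1.66, while the bands of Cmas and Gne cross 0.

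The order of RNA levels among the 10 genes was compared per kilobase of exon, since exon lengths ranged from 2293 bases in Slc35a1 to 12881 in Mgat4a. In the NrasQ61K libraries Mgat4b (22.6 ± 0.291 CPM per kilobase, SD, n = 2) and Mgat5 (21.9 ± 0.862) came first, and their values overlapped. Cmah (8.28 ± 1.89) and Slc35a1 (7.55 ± 0.268) overlapped as the next pair. Nans (6.68 ± 0.826), Mgat4a (5.99 ± 1.30) and Neu1 (5.93 ± 1.03) followed, each overlapping its neighbour. Cmas (2.56 ± 0.210) and Gne (2.39 ± 0.118) overlapped, and Neu3 (2.16 ± 0.0157) was last. In the Ezh2Y646N libraries the first positions were again held by Mgat4b (20.2 ± 0.313 CPM per kilobase) and Mgat5 (15.6 ± 1.34), which were apart there. Nans (11.0 ± 0.235) and Neu3 (6.52 ± 0.459) came next, then Slc35a1 (5.20 ± 0.307), Neu1 (4.28 ± 0.329), Cmas (2.90 ± 1.04) and Gne (2.46 ± 0.207), of which only Cmas and Gne overlapped. Mgat4a (1.12 ± 0.0065) and Cmah (0.452 ± 0.158) were last. Cmah was thus at 256% and 399% of the level of Cmas in the NrasQ61K libraries and at 9.35% and 26% of it in the Ezh2Y646N libraries.

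Genes around these steps, which the choice of the 10 did not use, were taken as 5 lists with 75 genes, of which 59 passed the filter on low counts. These lists too were chosen with earlier results of these data known. Of the 59, 1 rose and 0 fell at an edgeR adjusted p under 0.05, against 1.77% of all genes tested, and 13 had an unadjusted p under 0.05, where 14.3% of all genes tested did. Npl, the lyase that breaks down free sialic acid, was the gene that rose. It was at 136 and 64.3 CPM in the Ezh2Y646N libraries and at 13.8 and 25.4 CPM in the NrasQ61K libraries. Both Ezh2Y646N values were above both NrasQ61K values although the libraries differed 2.12-fold within the Ezh2Y646N group and 1.84-fold within the NrasQ61K group, and the log2 fold change was 2.35 ± 0.43 (SE; adjusted p = 0.0478 in edgeR). The Npl call was lost with RLE size factors (adjusted p = 0.0503), without Ezh2Y646N replicate 1 (log2 fold change 1.71, adjusted p = 0.118), without NrasQ61K replicate 1 (1.98, adjusted p = 0.0851) and with the replicate number as a block (2.31, adjusted p = 0.138), and its adjusted p ran from 2.35e-13 to 0.138 over all 10 alternatives. DESeq2 called 5 of the 59 genes, Npl and Fut8 higher and Gfpt2, St3gal3 and St6galnac5 lower, where it called 6.5% of all genes tested. Without NrasQ61K replicate 2 edgeR called 8 of the 59 and 7.66% of all genes tested, and without NrasQ61K replicate 1 it called 0 and 2.95%.

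Sialyltransferases, the Golgi enzymes that use CMP-sialic acid, had 17 tested genes of 20 listed. In limma voom, and in edgeR with all 4 libraries, the filter on low counts and group as the only term, 0 were called. DESeq2 called 2 lower, where it called 6.5% of all genes tested. In edgeR, 4 were called lower with no filter on low counts, where 6.95% of all genes tested were called. With the replicate number as a block 4 were called lower, where 9.37% of all genes tested were called. Their log2 fold changes were below 0 in 14 genes and above 0 in 3, with a median of -0.63, beside 7703 of 14265 below 0 and a median of -0.04 over all genes tested. An unadjusted p under 0.05 was found in 4 of the 17, where 14.3% of all genes tested had one. St3gal3, which caps galactose on glycans, was at 8.16 and 6.15 CPM in the Ezh2Y646N libraries and at 18.9 and 15.1 CPM in the NrasQ61K libraries, and its log2 fold change was -1.24 ± 0.33 (SE; adjusted p = 0.117 in edgeR). St3gal1, which acts mainly on O-glycans, was at 20.0 and 21.1 CPM against 37.7 and 38.5 CPM, and its log2 fold change was -0.89 ± 0.24 (SE; adjusted p = 0.119 in edgeR). The groups did not overlap for either gene. St6galnac5, which acts on gangliosides, was at 0.920 and 0.0691 CPM against 6.26 and 3.21 CPM. Its log2 fold change was -3.19 ± 0.94 (SE; adjusted p = 0.155 in edgeR), with 1 count in Ezh2Y646N replicate 2. The size of this value depended on the library, at -2.36 without Ezh2Y646N replicate 2 and -5.95 without Ezh2Y646N replicate 1. The list's median lay between -0.73 and -0.43 when each library was left out.

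The other lists had 0 genes past the threshold besides Npl in that edgeR fit. The list of other sialic acid metabolism had a median log2 fold change of -0.29 over 6 tested genes of 9, with Neu4 at 0 counts in all 4 libraries. Leaving out each library in turn moved this median between -0.32 and -0.06. The list of UDP-GlcNAc supply, the sugar nucleotide that Gne and the Mgat enzymes use, had a median of -0.27 over 8 genes. Of these, 7 were below 0, and DESeq2 called 1 lower, where it called 6.5% of all genes tested. An unadjusted p under 0.05 was found in 2 of the 8, beside 14.3% of all genes tested. Gfpt2, an isoenzyme of the rate-limiting step of that supply, was at 2.99 and 4.56 CPM in the Ezh2Y646N libraries and at 19.0 and 10.9 CPM in the NrasQ61K libraries. Its groups did not overlap, and the log2 fold change was -1.99 ± 0.43 (SE; adjusted p = 0.0678 in edgeR). Nagk, the kinase that salvages GlcNAc, and Uap1, the pyrophosphorylase that makes UDP-GlcNAc, had log2 fold changes of 0.82 (edgeR's adjusted p = 0.326) and -0.40 (edgeR's adjusted p = 0.524).

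N-glycan processing by other enzymes was described by 19 tested genes of 21, with a median log2 fold change of -0.09, 8 above 0 and 11 below. Of the 19, 3 had an unadjusted p under 0.05, beside 14.3% of all genes tested. DESeq2 called 1 higher, beside 6.5% of all genes tested, and limma voom called 0. Mgat1 and Mgat2, which add the first GlcNAc of each arm before Mgat4 and Mgat5 enzymes act, overlapped between the groups, at log2 fold changes of -0.10 (SE 0.24) for Mgat1 and 0.07 (SE 0.23) for Mgat2. Mgat1 and Mgat2 were added to the named genes with their values known. Fut8, which adds core fucose, was at 83.2 and 62.3 CPM in the Ezh2Y646N libraries and at 25.7 and 34.2 CPM in the NrasQ61K libraries. Both Ezh2Y646N values were higher, and the log2 fold change was 1.28 ± 0.27 (SE; adjusted p = 0.0632 in edgeR). The galactosyltransferase B4galt4 and the Golgi mannosidase Man2a2 had log2 fold changes of -0.98 (edgeR's adjusted p = 0.216) and -0.64 (edgeR's adjusted p = 0.289). The list's median was between -0.27 and 0.24 when each library was left out, so it had no stable sign. Mgat4c, the family member that follows Mgat4a and Mgat4b in name, had 1 count in 1 library and 0 in the other 3.

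Lectins that read sialic acid or branched glycans had a median log2 fold change of -0.32 over 9 tested genes of 17, and leaving out 1 library moved it between -0.47 and 0.14. An unadjusted p under 0.05 was found in 3 of the 9, where 14.3% of all genes tested had one. DESeq2 and limma voom called 0, while edgeR called 3 higher without NrasQ61K replicate 2 (7.66% of all genes tested) and 1 higher and 2 lower with no filter on low counts (6.95%). Of the sialic acid receptors of immune cells, Cd22, Cd33, Siglece, Siglecf, Siglecg and Siglech were under the filter on low counts and Siglec15 had 0 counts in all 4 libraries. Siglec1 passed the filter, at 1.26 and 1.45 CPM in the Ezh2Y646N libraries and at 1.26 and 4.89 CPM in the NrasQ61K libraries. Its groups overlapped, with a log2 fold change of -1.19 (SE 0.75). Lgals1, a galectin, was at 25.5 and 27.7 CPM in the Ezh2Y646N libraries and at 42.3 and 54.5 CPM in the NrasQ61K libraries, and its log2 fold change was -0.87 ± 0.25 (SE; adjusted p = 0.144 in edgeR). Selp, an adhesion receptor of platelets and endothelium, had a log2 fold change of -1.63 (edgeR's adjusted p = 0.222), and Mag, a sialic acid receptor of myelin, had one of 2.10 (edgeR's adjusted p = 0.348).

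**Figure D3:**
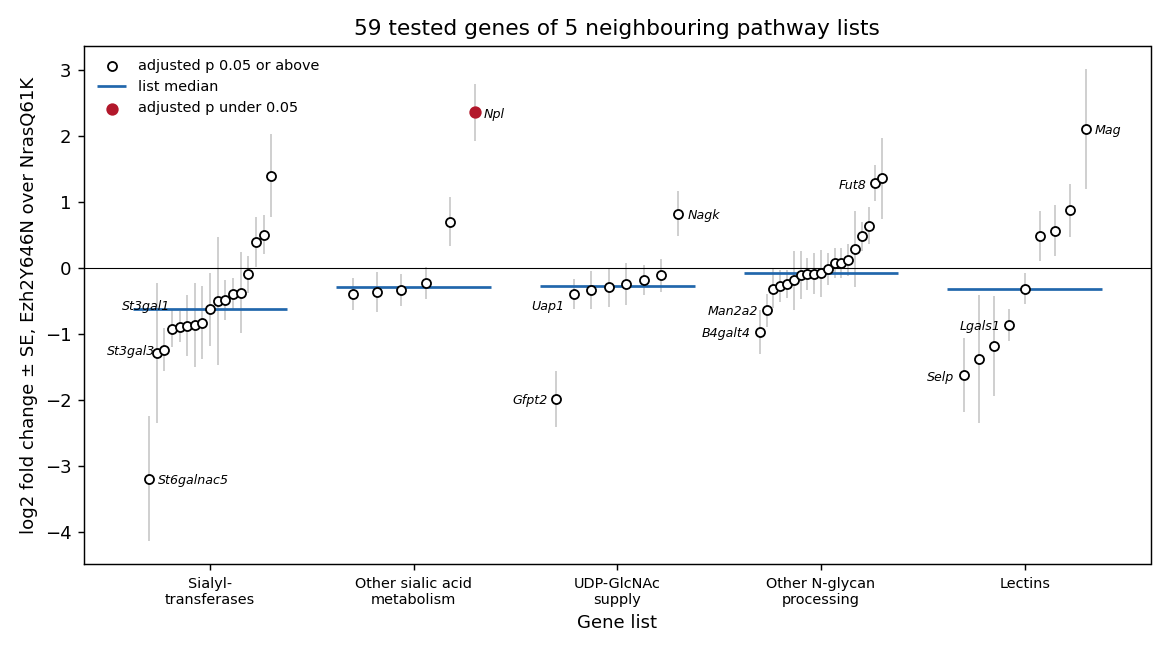
Log2 fold change of Ezh2Y646N over NrasQ61K, with bars of 1 SE, for the 59 tested genes of the 5 lists, ordered by size within each list. Blue lines are the list medians, which run from -0.63 for sialyltransferases to -0.09 for other N-glycan processing, and Npl at 2.35 is the filled point with an adjusted p under 0.05.

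The genes whose pattern over the 4 libraries lay nearest to that of Cmah and of Mgat4a were found among 14131 tested protein-coding genes, by the distance between log2 CPM values centred on each gene's mean. This likeness rests on 4 values and is a description. Nearest to Cmah were Gdf10 (distance 0.412), Dio3 (0.599), Rspo4 (0.851), Krt34 (0.931) and Pappa2 (0.942). Gdf10, a secreted factor of the BMP family, was at 1.21 and 1.73 CPM in the Ezh2Y646N libraries and at 17.6 and 31.9 CPM in the NrasQ61K libraries. Dio3, a thyroid hormone deiodinase, and Krt34, a hair keratin, had 0 counts in both Ezh2Y646N libraries, where 3 counts would be 0.172 and 0.207 CPM, and were at 1.77 and 3.16 CPM and at 2.84 and 1.82 CPM in the NrasQ61K libraries. With 0 counts, their values in the Ezh2Y646N libraries were set by the prior count of 2, so their nearness to Cmah depends on that setting. Their fitted log2 fold changes were -8.41 for Dio3 and -8.32 for Krt34. With 0 counts in the Ezh2Y646N group, the size of these cannot be compared with that of Cmah, -4.20. Rspo4, a secreted enhancer of Wnt signalling, was at 0.575 and 0.691 CPM against 19.8 and 13.3 CPM, and Pappa2, a protease of IGF binding proteins, at 1.32 and 0.898 CPM against 13.5 and 22.0 CPM. Rspo4 and Krt34 had their higher NrasQ61K value in replicate 1, whereas Cmah, Gdf10, Dio3 and Pappa2 had it in replicate 2.

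Nearest to Mgat4a were Ptgfr (distance 0.288), Col10a1 (0.324), Thsd1 (0.337), Dhrs9 (0.347) and Lrrc75b (0.349). Ptgfr, a prostaglandin receptor, and the collagen gene Col10a1 were at most 3.07 and 2.11 CPM in any library. Lrrc75b was at 4.48 and 3.80 CPM in the Ezh2Y646N libraries and at 22.7 and 33.1 CPM in the NrasQ61K libraries. Thsd1 was at 8.16 and 8.98 CPM against 30.7 and 43.1 CPM, and Dhrs9 was at 4.66 and 5.52 CPM against 18.0 and 29.0 CPM. In each of these the NrasQ61K values were the higher ones, as they had to be for a pattern like that of Mgat4a.

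**Figure D4:**
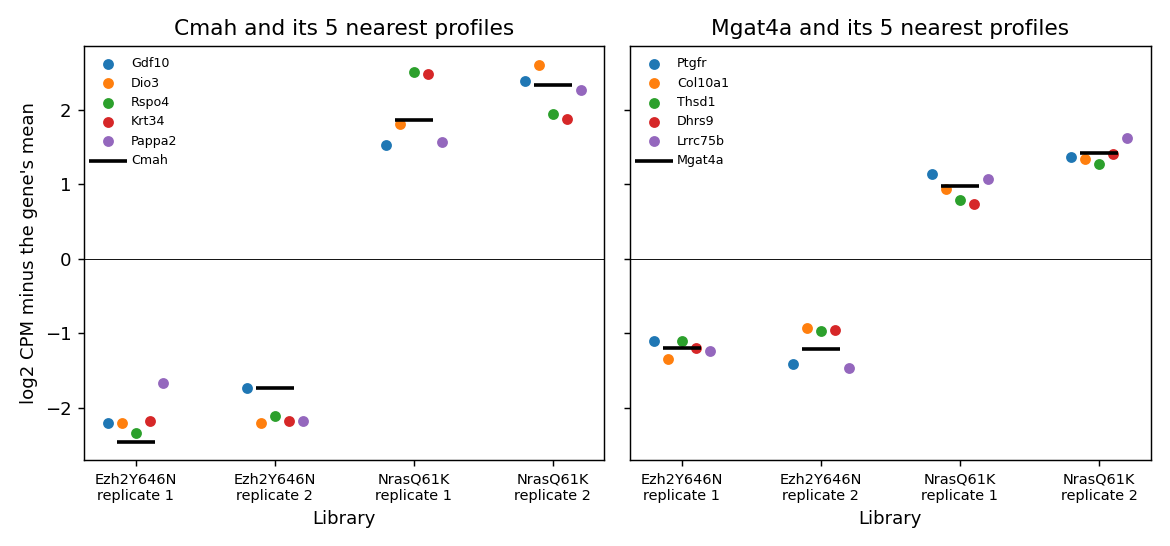
Log2 CPM minus the gene's mean over the 4 libraries, for Cmah (left) and Mgat4a (right) as black bars, with the 5 genes of nearest pattern as coloured points. Both genes and their neighbours lie below 0 in the Ezh2Y646N libraries and above 0 in the NrasQ61K libraries, with distances of 0.412 to 0.942 for Cmah and 0.288 to 0.349 for Mgat4a.

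Markers of several cell types moved with the same groups. The calls given for each list stand beside those over all genes tested. These were 1.77% in edgeR, 6.5% in DESeq2, 1.5% in limma voom and 6.95% with no filter on low counts, and 14.3% had an unadjusted p under 0.05. The sort was for labelled cells of the melanocyte lineage, and the 10 melanocyte markers were present, with a summed level of 3880 and 3970 CPM in the Ezh2Y646N libraries and of 2656 and 3457 CPM in the NrasQ61K libraries, led by the melanin enzyme gene Dct. In edgeR, DESeq2 and limma voom 0 of the 10 were called, and 0 had a p under 0.05 before adjustment. Keratin genes took 6.42% and 5.41% of all counts in the Ezh2Y646N libraries and 1.70% and 3.69% in the NrasQ61K libraries. RNA of epithelial cells was thus present as well. Suprabasal epidermis markers, led by Krt10, were above 0 in 9 of 9 tested genes with 4 called higher, at 42910 and 30180 CPM against 3484 and 9017 CPM, the direction of Neu3 and Npl. All 9 were above 0 in every alternative, but 9 were called in DESeq2 and when either NrasQ61K library was left out, and 2 without Ezh2Y646N replicate 1. Basal epidermis markers, led by Krt5, had 0 of 7 called in edgeR, DESeq2 and limma voom and 0 at an unadjusted p under 0.05, at 13360 and 20610 CPM against 10120 and 23950 CPM.

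Several lists had the direction of Cmah and Mgat4a. Hair shaft and inner root sheath markers, led by Tchh, were below 0 in 14 of 14 tested genes with 7 called lower, at 508 and 232 CPM in the Ezh2Y646N libraries against 2967 and 1548 CPM in the NrasQ61K libraries. All 14 were below 0 in every alternative, but the count called was 13 in DESeq2, 3 without Ezh2Y646N replicate 1, 1 without Ezh2Y646N replicate 2 and 10 without NrasQ61K replicate 2. Hair matrix and outer root sheath markers, led by Krt17, were below 0 in 9 of 11 with 2 called lower, at 1630 and 1706 against 3150 and 5088 CPM, and the count called ran from 1 when either Ezh2Y646N library was left out to 8 with no filter on low counts. Dermal papilla markers, led by Wif1, were below 0 in 10 of 10 with 2 called lower, at 58.1 and 30.9 against 208 and 118 CPM, and the count called ran from 1, in limma voom and without Ezh2Y646N replicate 2, to 5 with no filter on low counts. Fibroblast markers, led by Col1a1, were below 0 in 9 of 10 with 2 called lower, at 947 and 2186 against 4165 and 2495 CPM. Of the fibroblast markers 0 were called in limma voom or when either Ezh2Y646N library was left out, and their median log2 fold change, -1.16, was -0.62 without Ezh2Y646N replicate 1 and -1.96 without Ezh2Y646N replicate 2. Endothelial markers, led by Plvap, and macrophage and dendritic cell markers, led by Cd74, were below 0 in 10 of 10 each with 0 called in limma voom and in the edgeR fit of all 4 libraries with the filter and no block. In edgeR with no filter on low counts 3 and 6 were called lower, in DESeq2 1 and 4, and 3 and 6 had an unadjusted p under 0.05 with the filter. Their summed levels were at 194 and 123 against 289 and 284 CPM and at 77.3 and 145 against 166 and 401 CPM. The macrophage and dendritic cell median, -1.32, became -0.39 without NrasQ61K replicate 2, with 7 genes below 0 and 3 above. The endothelial median, -0.72, lay between -1.23 and -0.36 when each library was left out. Every marker of these lists with a row in the files had counts in at least 1 library. Their part in the Cmah, Mgat4a, Neu3 and Npl results was not tested.

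The remaining lists were small or mixed. Schwann cell and glia markers were above 0 in 8 of 10 with 1 called higher (0 in limma voom, 4 in DESeq2), at 1065 and 458 against 285 and 467 CPM. Egr2, the most abundant of them, went the other way, with a log2 fold change of -0.80 (SE 0.26). It was at 98.0 and 99.2 CPM in the Ezh2Y646N libraries and at 136 and 206 CPM in the NrasQ61K libraries. With the replicate number as a block, 0 of this list were called higher and 1 lower, where 9.37% of all genes tested were called. Skeletal muscle markers, led by Acta1, summed to at most 38.3 CPM, lymphocyte and mast cell markers, led by Cd3g, to at most 21.2 CPM, and erythroid markers, led by Hbb-bs, to at most 11.3 CPM in any library. In each of these 3 lists 0 were called in edgeR, DESeq2 and limma voom, and before adjustment 0, 0 and 1 had a p under 0.05.

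**Figure D5:**
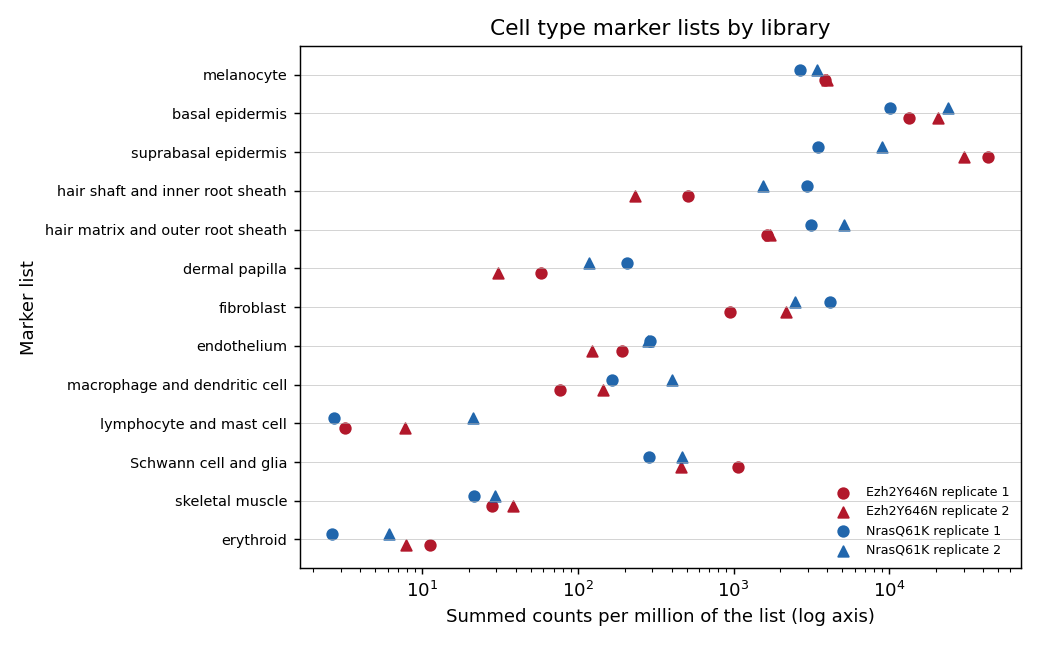
Summed CPM of each marker list, on a log axis, in the 2 Ezh2Y646N libraries (red) and the 2 NrasQ61K libraries (blue), with circles for replicate 1 and triangles for replicate 2. The suprabasal epidermis list lies at 42910 and 30180 CPM against 3484 and 9017 CPM, and the hair shaft and inner root sheath list at 508 and 232 CPM against 2967 and 1548 CPM.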

How the data were processed

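The deposited values are raw read counts per Ensembl gene, 1 file per library with no normalization. Per the submitters' processing notes, the build was GRCm38 and the tools were STAR 2.5.4b, featureCounts, Trimmomatic, bcl2fastq 2.19 and edgeR, listed with no role or order. Annotation release, strand setting and gene filter were not given in the sources used here. Symbols, coordinates and exon lengths came from GENCODE M21 on GRCm38, which held 22291 of 22524 identifiers. Of 209 listed symbols, 207 had a row, and Flg and Krt85 did not.

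The test of the counts was that of edgeR 4.0.16 (R 4.3.3), with filterByExpr (minimum count 10, total 15), TMM scaling, a robust quasi-likelihood fit with group as its term and 2 residual degrees of freedom, and Benjamini-Hochberg adjustment over every tested gene, called under 0.05. The SE was the size of the log2 fold change divided by the root of its F statistic. The test was also run on counts simulated with its own fitted dispersions, which checks the code and not the calls reported here. Distances used log2 CPM with a prior count of 2. Alternatives were RLE factors, no filter on low counts, DESeq2 1.42.0, limma 3.58.1 voom, a fit that was not robust, the replicate number as a block, and each library left out.

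The 10 genes and all lists were chosen with earlier results of these data known. The genes named were the 10, those past the threshold in each pathway list or otherwise the 3 with the smallest p, the 5 nearest patterns of Cmah and of Mgat4a, and the most abundant marker of each cell type. Names added after their values were seen are Mgat1, Mgat2, Mgat4c, Neu4, the Siglec family genes with Cd22 and Cd33, and those called by DESeq2. P-values reflect only the spread between libraries of a group.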

Additional observations from a re-analysis of the deposited data

How the results depend on the processing

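The number of genes called over the whole table was 253. It was 927 in DESeq2, 1302 with no filter on low counts, and 92 to 1123 when each library was left out. Of the 10 genes, 3 were called, where 1.77% of all genes tested were. DESeq2 called 3 (6.5% of all genes tested) and limma voom 2 (1.5%), with Cmah and Mgat4a called in both and Neu3 not called in limma voom. Since the 10 genes were chosen with this comparison in view, their calls are a description and not a test. Of the 100 log2 fold changes of the 10 genes under the alternatives, 97 moved by less than their SE and 3 by more. The number of genes called in the 5 pathway lists was 1. It was 5 in DESeq2, 10 with no filter, 0 with RLE size factors, and 0 to 8 when each library was left out. The 13 pathway genes kept the sign of their log2 fold change in every alternative, with 23 calls gained and 4 lost. The labels give no pairing of libraries by number, and same-numbered libraries had deviations from their group means that correlated at 0.108 across genes. With the replicate number as a block, 1337 genes, 9 pathway list genes and 3 of the 10 genes were called, and the block fit did not call Npl (adjusted p = 0.138). The causes of these differences were not tested. Genes near the floor of 3 counts, 0.144 to 0.207 CPM per library, could not be compared.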
